A study of Mus musculus with 19 samples.

Results

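Mouse embryonic stem cells that lacked TRIM71 were compared with cells that lacked LIN28A, to ask which genes and pathways set the loss of 1 protein apart from the loss of the other. The 9 libraries were chosen by genotype label alone out of 19 in the series: 4 of KO-WT (Trim-/- - Lin28afl/fl, Trim71 null with Lin28a intact) and 5 of WT-KO (Trimfl/fl - Lin28a-/-, Trim71 intact with Lin28a null). WT-WT cells, floxed at both genes and deleted for neither, gave 4 reference libraries. A further 5 KO-KO libraries, null for both, entered the fit to estimate the spread and the day terms. They also counted toward the filter on low levels and toward the correlations between gene profiles. 1 further KO-WT column was left out, since it matched the average of the remaining KO-WT columns to within 1.5e-08. All cells were male, of the C57BL/6 strain, grown in fetal calf serum with leukaemia inhibitory factor (LIF), and were purified before lysis by magnetic sorting on SSEA-1, a surface antigen of these cells. Trim71 was deleted with 4-hydroxytamoxifen (4-OHT, 500 nM for 2 days), and the cells grew for 7 days or more afterwards, so drug exposure and Trim71 loss cannot be told apart. The labels do not say how Lin28a was deleted.

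KO-WT comprised 3 libraries of clone E3 and 1 of clone 1, and WT-KO comprised 3 of clone C1 and 2 of clone 1-4. WT-WT used clones E3 and 1, those of KO-WT, so the Lin28a genotype and the clone cannot be told apart anywhere below. The labels list these 4 clone names although they speak of a pair of clones. Each KO-WT library shared its harvest day with a WT-KO library, which gave 4 same-day pairs. The labels do not say that libraries came from separate cultures beyond their days, and p-values measure the spread between these libraries. Values are the authors' deposited log2 normalised levels, from which differences between days had already been removed, and the sequencing depth of the libraries is not known from them.

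TRIM71 is an RNA-binding protein of the TRIM-NHL family that represses bound mRNAs and is present in early embryos and stem cells. LIN28A binds the precursors of let-7 microRNAs and blocks their maturation, and it also binds mRNAs directly. Mature let-7 pairs through its seed with sites in the 3' untranslated regions (UTRs) of its targets, which include Trim71 and Lin28a themselves, so that in the textbook circuit LIN28A, let-7 and TRIM71 are linked. let-7 itself was not measured in these mRNA libraries.

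The let-7 arms below, from RefSeq on GRCm38.p6, are shown because the shared seed (bases 2 to 8, in capitals) is the feature that joins the pair of mutations. Of 11 arms in the RefSeq table, 10 carry this seed, and let-7j, printed last, carries another one.

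let-7a-5p: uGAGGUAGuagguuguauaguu
let-7c-5p: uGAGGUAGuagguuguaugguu
let-7d-5p: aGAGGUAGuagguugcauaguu
let-7g-5p: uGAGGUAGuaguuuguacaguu
let-7i-5p: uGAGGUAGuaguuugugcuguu
miR-98-5p: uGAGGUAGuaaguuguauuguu
let-7j: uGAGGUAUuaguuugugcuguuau

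The first 8-base match to the seed (in capitals: the complement of the seed followed by A) is given for 4 mRNAs that differed between the mutants, with the bases before it, from the longest 3' UTR in GENCODE vM21 on GRCm38. The sites lie on the minus strand at chr9:114512472-114512501 (Trim71), chr4:134005189-134005218 (Lin28a), chr10:120364224-120364253 (Hmga2) and chr16:22059473-22059502 (Igf2bp2).

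Trim71: aaagtacaacattgcctaagtcCTACCTCA
Lin28a: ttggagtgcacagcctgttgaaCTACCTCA
Hmga2: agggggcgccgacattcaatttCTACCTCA
Igf2bp2: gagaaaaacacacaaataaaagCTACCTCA

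The UTR of Trim71 held 4 such matches and that of Lin28a 2, while Hmga2 and Igf2bp2 held 1 each. With matches that lack the final A counted as well, Hmga2 held 4, and the counts of Trim71, Lin28a and Igf2bp2 stayed at 4, 2 and 1.

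Each targeted mRNA was lowest in the cells labelled null for it. Trim71 levels were 8.77, 8.96, 9.06 and 8.79 in the KO-WT libraries and 10.53, 11, 10.57, 10.67 and 10.49 in the WT-KO libraries. No library overlapped, and the mutants differed by -1.76 log2 units (standard error (SE) 0.111, adjusted p = 4.55e-09, limma with Benjamini-Hochberg adjustment over all genes tested). Against WT-WT (10.33, 10.26, 10.04 and 10.19), Trim71 was lower in KO-WT by -1.31 and higher in WT-KO by 0.45 (limma adjusted p = 2.39e-05 and 0.00431).

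Lin28a levels were 9.80, 9.83, 10 and 9.74 in KO-WT and 8.48, 8.57, 8.33, 8.52 and 8.47 in WT-KO. The groups did not overlap, the difference was 1.37 (SE 0.0752, limma adjusted p = 1.09e-09), and WT-KO lay -1.65 from WT-WT, with KO-WT at -0.28 (limma adjusted p = 1.44e-10 and 0.036). Lin28b, the paralogue that blocks let-7 by another route, was slightly lower in KO-WT, by -0.32 (limma adjusted p = 0.0161). Its groups overlapped, with levels of 7.52 to 7.92 in KO-WT and 7.82 to 8.18 in WT-KO. Its call was lost without KO-WT replicate 1 or 3 or WT-KO replicate 2 or 4 (limma adjusted p = 0.0563 to 0.0823).

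Cells without LIN28A held less of several keratins, annexins, type IV collagen chains, the imprinted RNA H19 and extraembryonic genes than cells without TRIM71, and they held more of Lefty1, Lefty2, Gdf3 and several naive-state and neuronal mRNAs. Of 14988 genes tested, 6915 (46.1%) were called between the mutants at an adjusted p under 0.05 (limma), 3371 higher (22.5%) and 3544 lower (23.6%) in KO-WT. Most differences were small: the median absolute log2 difference of called genes was 0.32. Only 264 genes (1.76%) were called and at least 2-fold apart, and these leaned to 1 side, 226 higher and 38 lower in KO-WT. At least 4-fold differences numbered 42. Over all genes tested, 6380 (42.6%) had no overlap between the groups. Among called genes, 5951 had no overlap and 6270 differed the same way in all 4 same-day pairs. These counts use the same values as the calls, so they are no separate support for them. The plot of all genes shows the longer arm on the side of genes higher in KO-WT.

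**Figure D1:**
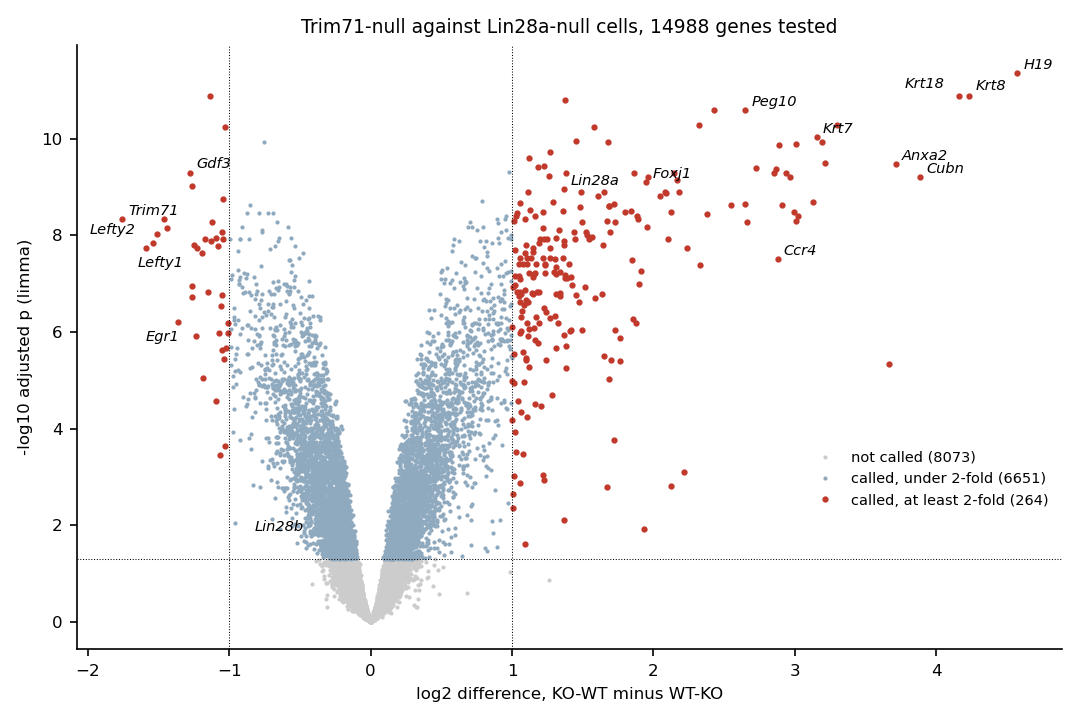
Log2 difference between KO-WT (n = 4) and WT-KO (n = 5) against the -log10 adjusted p of limma, 1 point per gene tested. Grey points were not called, blue points were called at under 2-fold and red points are the 264 called genes at least 2-fold apart, of which 226 lie to the right (higher in KO-WT).

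The leading genes described next were picked among called genes for groups without overlap. Their lack of overlap was thus fixed by the choice and is no separate support. The gene furthest apart was H19, a maternally expressed imprinted long non-coding RNA. Its levels were 10.77, 10.70, 10.76 and 10.49 in KO-WT and 6.03, 5.89, 6.03, 6.15 and 6.43 in WT-KO. KO-WT was 23.8-fold higher (log2 difference 4.57 ± 0.14, limma adjusted p = 4.31e-12), with a gap of several units between the groups. Against WT-WT, H19 differed by -0.54 in KO-WT and by -5.11 in WT-KO, and both were called (limma adjusted p = 0.0349 and 7.28e-13). The small-RNA annotations Gm27483 and Gm27786 followed H19 most closely over the 18 libraries (Pearson r = 0.999 each), and both lie inside the H19 locus on the opposite strand in GENCODE vM21. The library kit does not mark strand, so reads of H19 and of these annotations cannot be told apart.

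Simple epithelial keratins, the intermediate filaments of single-layered epithelia, came next. Krt8 levels were 11.02, 10.74, 10.90 and 11.23 in KO-WT and 6.51, 6.79, 6.89, 6.89 and 6.62 in WT-KO. Those of its filament partner Krt18 were 10.89, 10.57, 10.70 and 10.89 and 6.35, 6.61, 6.79, 6.79 and 6.47. Every KO-WT library stood far above every WT-KO library for both. The folds were 18.8 and 17.9 (log2 differences 4.23 ± 0.152 and 4.16 ± 0.147, limma adjusted p = 1.29e-11 and 1.29e-11). Krt7 and Krt19 were 8.9-fold and 8.11-fold higher in KO-WT (limma adjusted p = 9.25e-11 and 3.96e-09). Across the 18 libraries, the profiles most like that of Krt8 were those of Krt18, Hand1 and Podxl (r = 0.999, 0.998 and 0.997), as a description of libraries that share their Lin28a state.

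Cubn, which codes for the endocytic receptor cubilin of visceral endoderm and kidney, ran at 8.36, 8.13, 8.12 and 8.87 in KO-WT and 4.23, 4.53, 4.84, 4.64 and 4.18 in WT-KO, a 14.8-fold difference (3.89 ± 0.204 log2 units, limma adjusted p = 6.09e-10). Dab2, an adaptor that works with cubilin in uptake, was 7.96-fold higher (7.03 to 7.75 against 4.10 to 4.63). The calcium- and membrane-binding annexins Anxa2 and Anxa1 were 13.1-fold and 8.04-fold higher. Col4a2, a chain of basement membrane collagen, was 8.06-fold higher and Tinagl1, another basement membrane component, 8.77-fold. All of these were called by limma with no overlap between groups, as was AC122273.1 (2.97 log2 units), an annotation for which no gene model was matched here.

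Genes lower in KO-WT moved by less. After Trim71 itself came Lefty1 and Lefty2, secreted inhibitors of Nodal signalling. Lefty1 levels were 6.90, 6.85, 7.17 and 6.61 in KO-WT and 8.31, 8.50, 8.42, 8.46 and 8.69 in WT-KO, and Lefty2 levels were 6.43, 6.33, 6.50 and 6.18 and 7.72, 8.02, 7.76, 7.91 and 8.11. Neither gene's groups overlapped, and WT-KO was 3.01-fold and 2.91-fold higher (log2 differences -1.59 ± 0.115 and -1.54 ± 0.109, limma adjusted p = 1.81e-08 and 1.42e-08). Gdf3, a TGF-beta ligand of pluripotent cells, was 2.42-fold higher in WT-KO, at 10.15, 10.20, 10.06, 10.19 and 10.27 against 8.94, 9.0, 8.93 and 8.73, again without overlap (limma adjusted p = 4.99e-10).

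The neuronal tubulin Tubb3 (2.4-fold), the teneurin adhesion receptor Tenm3 (2.4-fold), the atypical cadherin Fat2 (2.76-fold), the neutral amino acid transporter Slc6a15 (2.71-fold), the unconventional myosin Myo1f (2.85-fold), the zinc finger factor Zic5 (2.28-fold) and Zfp819 (2.34-fold) were also higher in WT-KO and called by limma without overlap. Zfp819 belongs to a large family of similar zinc finger genes, among which reads can be split uncertainly. Egr1, an immediate early transcription factor, was 2.36-fold higher in WT-KO, at 8.73, 9.24, 8.59, 9.08 and 8.71 against 7.50, 7.75, 7.57 and 7.71 in KO-WT (-1.24 ± 0.13 log2 units, limma adjusted p = 1.24e-06), and its groups stood apart.

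**Figure D2:**
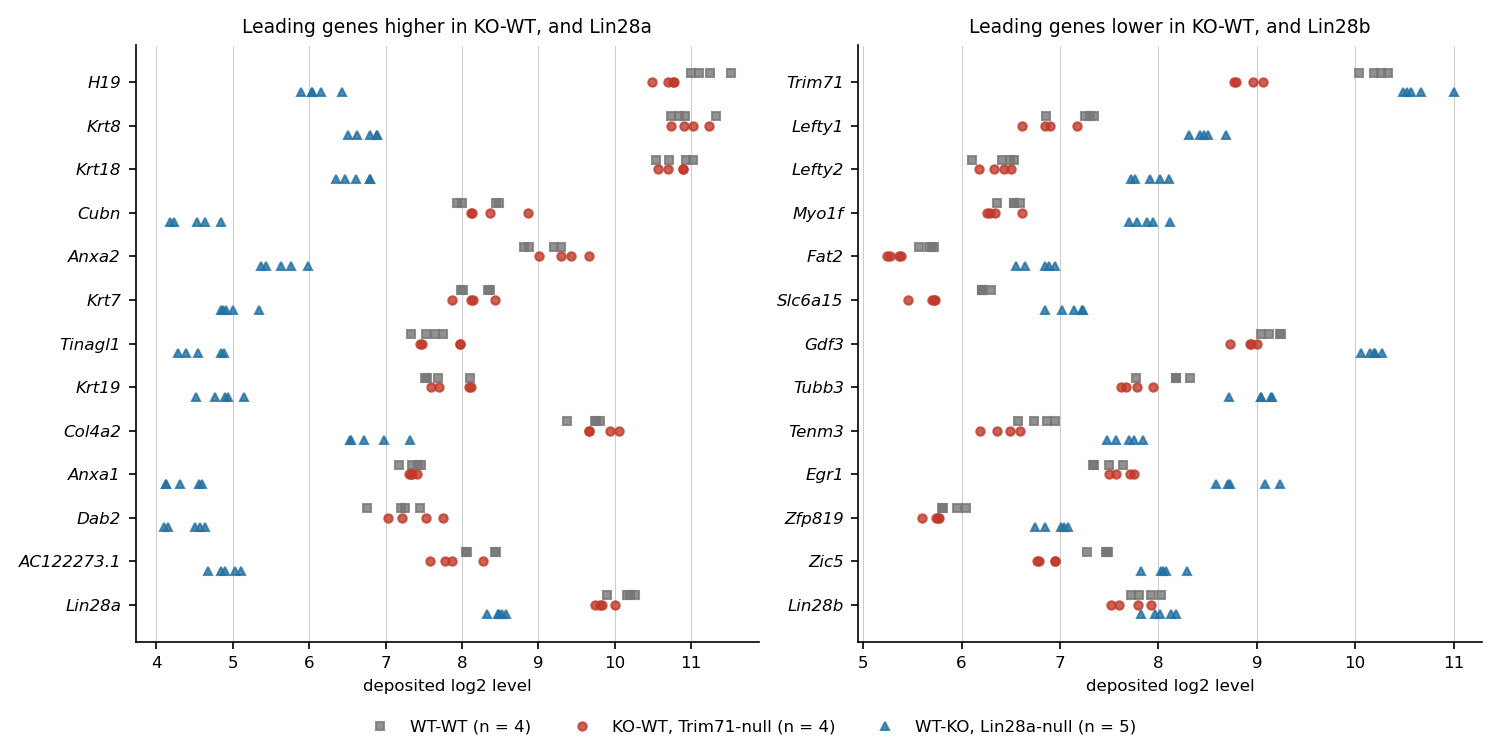
Deposited log2 level of the 12 leading genes in each direction, with Lin28a and Lin28b, in every library of WT-WT (squares, n = 4), KO-WT (circles, n = 4) and WT-KO (triangles, n = 5). Circles and triangles are apart for every gene shown except Lin28b. For the leading genes this was fixed in advance, since they were picked for groups without overlap. For most genes higher in KO-WT, circles lie close to the squares.

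The WT-WT libraries were used as a reference for which mutant lay farther from cells with both genes; both mutants were set against the same 4 WT-WT libraries, and WT-WT shares its clones with KO-WT but not with WT-KO. Against WT-WT, 1674 genes (11.2%) were called in KO-WT and 6351 (42.4%) in WT-KO (limma). Without a day term the KO-WT count was 4219, and leaving out single libraries moved it between 528 and 1978. It fell to 999, 602 and 528 without WT-WT replicates 2, 3 and 4 and to 959 and 613 without KO-WT replicates 2 and 3. Of the 226 genes at least 2-fold higher in KO-WT than in WT-KO, WT-KO lay farther from WT-WT for 216; their median difference from WT-WT was 0.11 in KO-WT and -1.28 in WT-KO. Of the 38 at least 2-fold lower, WT-KO lay farther for 33, with medians of -0.35 and 0.85. Krt8, of the first set, differed from WT-WT by 0.01 in KO-WT (limma adjusted p = 0.964) and by -4.22 in WT-KO (limma adjusted p = 1.66e-11).

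Which mutant lay farther was then tested with limma, for differences of opposite sign from the sum of both differences from WT-WT (called for 23.6% of all genes tested) and otherwise from the difference between the mutants; this test was added after the data were seen. The Lin28a-null cells were called farther for 194 of their 249 genes. These include every gene whose differences had the same sign, such as H19, Krt18 and Peg10. For those genes the call was fixed in advance, since a called difference between the mutants had put them in the set. Only calls for differences of opposite sign add information. For the remaining 15 genes the difference from WT-WT was larger in KO-WT, but it was called larger for only 4: Foxj1, Gm364, Lrrc15 and Trim71 itself (limma adjusted p = 0.02, 0.00986, 0.0153 and 0.00682). For 5 of the 15 (Ccr4, Txnip, Gm15441, H2afj and Atp10a), leaving out 1 library turned which mutant lay farther: WT-WT replicate 4 for H2afj and Atp10a, WT-WT replicate 2 or WT-KO replicate 3 for Txnip, and these or WT-KO replicate 1 or KO-WT replicate 2 for Gm15441, with Ccr4 given below. It also turned for 13 of the 249. The 15 were singled out after their values were seen. The 10 that were higher in KO-WT were Ccr4, Foxj1, Gm364, Dglucy, Txnip, Gm15441, Lsp1, Tex13b, H2afj and Dennd2d, and the 5 that were lower were Trim71, Aurkc, Atp10a, Lrrc15 and Znf41-ps. Foxj1, the master transcription factor of motile cilia, had levels of 7.02, 7.05, 7.22 and 7.14 in KO-WT, 5.12, 5.18, 5.42, 4.84 and 5.23 in WT-KO and 5.80, 5.79, 5.84 and 5.77 in WT-WT. The 3 groups did not overlap: KO-WT was above WT-WT by 1.31 and WT-KO differed by -0.64 (limma adjusted p = 2.39e-05 and 0.000144), which put the mutants 1.95 log2 units apart. Dglucy, a mitochondrial D-glutamate cyclase, differed from WT-WT by 0.84 in KO-WT and -0.53 in WT-KO (limma adjusted p = 0.000277 and 0.000432).

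Txnip, an inhibitor of thioredoxin and of glucose uptake, differed from WT-WT by 0.60 in KO-WT and -0.55 in WT-KO (limma adjusted p = 0.000999 and 7.53e-05). Its antisense partner Gm15441 moved alike (0.56 and -0.53), and in unstranded libraries reads of the pair cannot be told apart. Aurkc, a kinase of meiotic cells, went the other way, with -0.85 in KO-WT and 0.51 in WT-KO. Its levels were 4.46, 4.60, 4.08 and 4.24 in KO-WT and 5.73, 5.44, 5.80, 5.93 and 5.65 in WT-KO, with no overlap.

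Ccr4, a chemokine receptor gene, was 7.35-fold higher in KO-WT than in WT-KO. Its levels were 7.56, 7.39, 7.40 and 8.41 in KO-WT, 4.99, 4.96, 4.47, 4.86 and 4.78 in WT-KO and 5.95, 6.66, 6.53 and 5.79 in WT-WT, so the last KO-WT library, the only one of clone 1, was the highest. KO-WT was above WT-WT by 1.46 and WT-KO differed by -1.42 (limma adjusted p = 0.00189 and 8.07e-05). These distances were not called different by that test (adjusted p = 0.958), and without KO-WT replicate 4 they were 1.1 and -1.45; WT-KO was also the farther without WT-WT replicate 1 or 4 or WT-KO replicate 1. Ccr4 is the nearest protein-coding neighbour of Trim71 on 1 side in RefSeq GRCm38.p6, and the neighbour on the other side, Cnot10, differed by 0.06 between the mutants (limma adjusted p = 0.226). Next to Lin28a, the neighbours Dhdds and Crybg2 differed by -0.04 and -0.14, and neither was called between the mutants, although Crybg2 lay above WT-WT in WT-KO by 0.39 (limma adjusted p = 0.00118). Of the 12 protein-coding genes within 3 places of either deleted gene, 4 were called between the mutants, a share no higher than the 46.1% of all genes tested. They were Ccr4, Hmgn2 near Lin28a (0.40 ± 0.0611, limma adjusted p = 6.07e-05) and Tmppe and Glb1 near Trim71 (0.26 and -0.21, limma adjusted p = 0.0115 and 0.0101). Tmppe lost its call without KO-WT replicate 4 and Glb1 without KO-WT replicate 2 (adjusted p = 0.0574 and 0.0502). These neighbours were looked up after the values were seen.

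**Figure D3:**
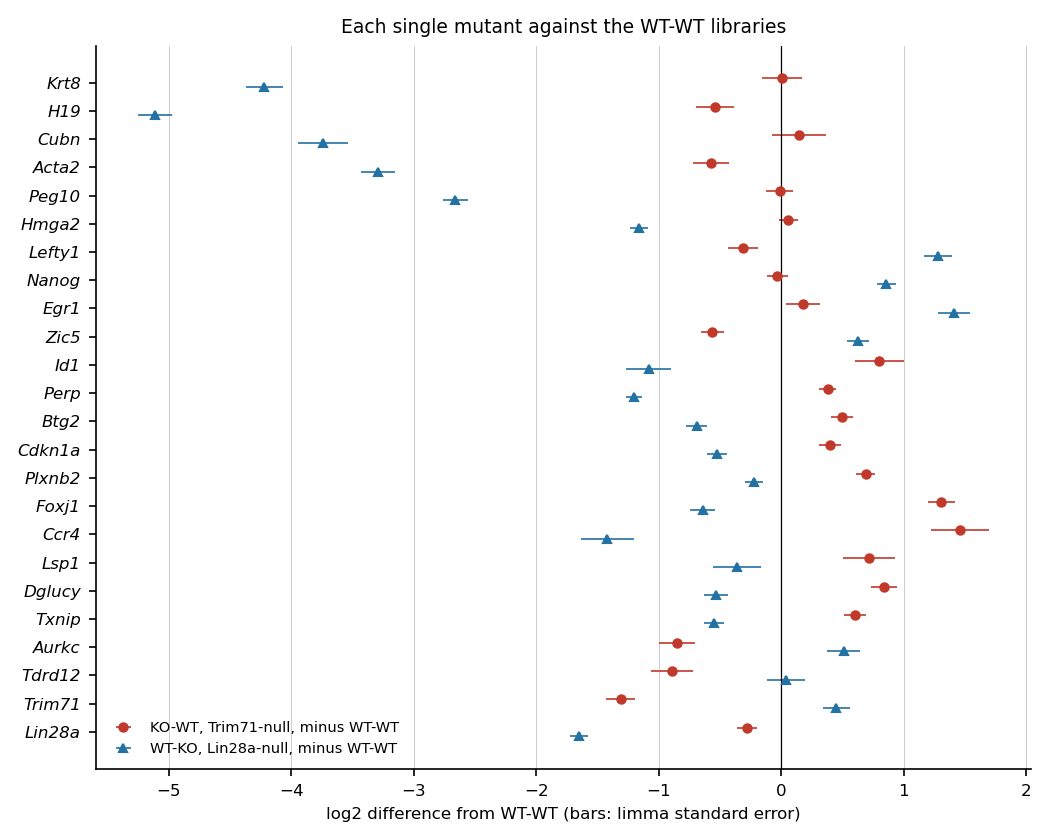
Log2 difference of each single mutant from the same 4 WT-WT libraries for 24 genes named in the text, with limma standard errors as bars. For genes from Krt8 to Egr1 the Lin28a-null points (triangles) lie farther from 0 than the Trim71-null points (circles); for Foxj1, Lsp1, Dglucy, Aurkc, Tdrd12 and Trim71 the circles lie farther, and for Ccr4 and Txnip both lie at nearly the same distance.

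Gene lists chosen by function are described next by their counts, beside the 46.1% of all genes called (22.5% higher, 23.6% lower, median log2 difference -0.007). The keratin, trophectoderm and primitive endoderm lists had the largest shares of members called higher in KO-WT. Among simple epithelial keratins and their junction partners, 14 of 14 tested members were called (100%), 13 higher and 1 lower in KO-WT, with a median log2 difference of 0.508. The plaque protein Dsp (1.34 ± 0.116) and Krt20 (1.43 ± 0.0963) followed the leading keratins, the tight junction claudin Cldn6 differed by 0.60, and the adhesion molecule Epcam by 0.18. Krt42 was the 1 member lower in KO-WT (-0.46 ± 0.108, limma adjusted p = 0.00222). The AP-1 motif TGANTCA, searched on both strands, occurred in a promoter window of 1 of 13 members with a window (7.69%, Cldn4), against 7.81% of all 32851 RefSeq windows of the same length. Members were counted over all their windows and the comparison over single windows.

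Of trophectoderm and placental genes, 12 of 14 tested members were called (85.7%), 12 higher and 0 lower in KO-WT, with a median log2 difference of 1.103. Hand1, a bHLH factor of trophoblast giant cells, had levels of 6.64, 6.44, 6.73 and 6.78 in KO-WT and 3.49, 3.89, 3.90, 3.93 and 3.61 in WT-KO. The groups were far apart (7.38-fold, 2.88 ± 0.132 log2 units, limma adjusted p = 1.36e-10). Gata3, a trophectoderm transcription factor, the placental homeobox gene Rhox6 and the galectin Lgals1 differed by 1.38 ± 0.0712, 1.27 ± 0.123 and 1.26 ± 0.0657, and each was called by limma.

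For primitive endoderm, the lineage that forms visceral and parietal endoderm, 16 of 16 tested members were called (100%), 15 higher and 1 lower in KO-WT, with a median log2 difference of 1.232. The lineage factors Gata4 and Gata6 were 3.75-fold and 3-fold higher in KO-WT. Gata4 levels were 6.51, 6.59, 6.92 and 6.99 in KO-WT and 4.68, 4.91, 5.12, 4.86 and 4.64 in WT-KO, and those of Gata6 were 4.91, 4.70, 4.74 and 5.28 and 3.18, 3.36, 3.47, 3.47 and 3.13, with no overlap for either. The growth factor receptor Pdgfra (1.73 ± 0.176) and the cubilin partner Lrp2 (1.85 ± 0.18) were also called. Grb10, an imprinted adaptor of growth factor receptors, was the exception (-0.94 ± 0.114, limma adjusted p = 6.16e-06).

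Basement membrane genes followed: 14 of 18 tested members were called (77.8%), 11 higher and 3 lower in KO-WT, with a median log2 difference of 0.365. Col4a1 differed by 2.91 ± 0.172, the collagen prolyl hydroxylase P4ha2 by 1.47 ± 0.133 and the collagen chaperone Serpinh1 by 1.31 ± 0.102, with Sparc, a collagen-binding matrix protein, at 1.12. The fibulin Fbln1 was lower in KO-WT (-0.57 ± 0.0746). Of cadherin and adhesion genes, 12 of 17 tested members were called (70.6%), 9 higher and 3 lower in KO-WT, with a median log2 difference of 0.130, from the hyaluronan receptor Cd44 (1.09) and the protocadherin Pcdh1 (0.95) to the P-cadherin gene Cdh3 (-0.82) and Fat2 (-1.46).

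Summed markers of other cell types are given beside these lists, which they largely repeat: all 5 tested primitive endoderm markers, all 6 tested trophectoderm markers and 7 of 8 tested stem cell markers are members of the gene lists, against 0 of 6 tested fibroblast markers. The log2 of the summed levels of the primitive endoderm marker list (8 of 10 markers matched) was 8.32 to 8.90 in KO-WT, 6.37 to 6.73 in WT-KO and 8.05 to 8.51 in WT-WT. All 5 tested markers were higher in KO-WT, while Sox17, Foxa2 and Hnf4a were below the filter. For trophectoderm markers (9 of 10 matched) the sums were 8.31 to 8.38, 7.08 to 7.23 and 8.23 to 8.39; 5 of 6 tested markers were higher in KO-WT, and Cdx2, Elf5 and Tfap2a were below the filter. Fibroblast and feeder markers (7 of 14 matched) summed to 9.76 to 9.88, 9.25 to 9.48 and 9.75 to 9.96, with 3 of 6 tested markers higher and 1 lower in KO-WT. Embryonic stem cell markers (9 of 9 matched) summed to 15.17 to 15.29 in KO-WT and 15.44 to 15.64 in WT-KO, with 4 of 8 tested markers lower in KO-WT and none higher, and no 2-cell-like marker passed the filter. In bulk RNA, fewer cells of a type and less RNA per cell cannot be told apart, and the part of these markers in the differences was not tested.

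**Figure D4:**
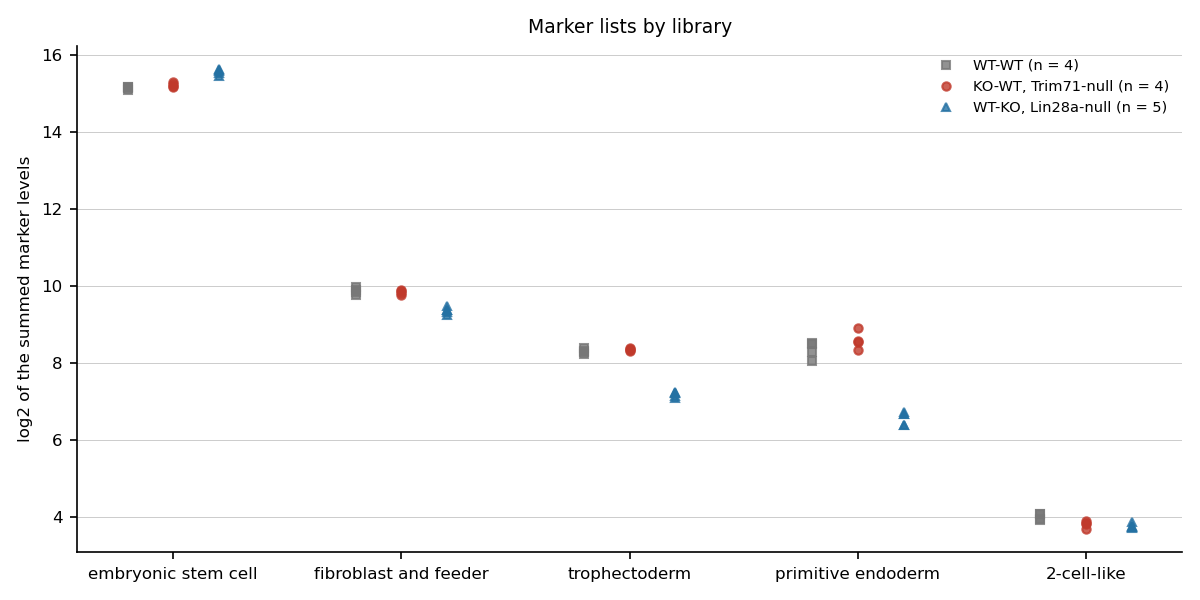
Log2 of the summed deposited levels of each cell type marker list in every library of WT-WT (squares), KO-WT (circles) and WT-KO (triangles). In the trophectoderm, primitive endoderm and fibroblast and feeder lists every WT-KO library lies below every KO-WT library. In the stem cell list every WT-KO library lies above every KO-WT library.

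Contractile and cytoskeletal genes, many of them targets of serum response factor (SRF), formed a further group: 27 of 31 tested members were called (87.1%), 24 higher and 3 lower in KO-WT, with a median log2 difference of 0.832. Acta2, smooth muscle actin, had levels of 5.98, 5.83, 6.11 and 5.63 in KO-WT and 3.05, 3.23, 3.34, 3.17 and 3.03 in WT-KO, and Tagln, an actin-binding protein of smooth muscle, 7.66, 7.58, 8.03 and 7.60 and 4.54, 5.03, 4.99, 4.85 and 4.89. Both were well separated (6.6-fold and 7.24-fold, limma adjusted p = 3.99e-10 and 4.99e-10). Anxa3 (2.86 ± 0.144), the matrix protein Thbs1 (2.65 ± 0.155) and the calcium-binding S100a6 (2.33 ± 0.18) were among the furthest apart. The matricellular genes Cyr61 and Ctgf, classical targets of YAP and SRF, differed by 1.44 ± 0.0999 and 1.39 ± 0.114. Only Myl9 (-0.70 ± 0.132), a myosin light chain, Csrp2 (-0.18) and the SRF cofactor Mkl1 (-0.16) were lower in KO-WT; Csrp2 and Mkl1 were near the threshold (limma adjusted p = 0.034 and 0.0303). Csrp2 lost its call without KO-WT replicate 2, 3 or 4 or WT-KO replicate 1, 3, 4 or 5, and Mkl1 without KO-WT replicate 1, 2 or 4 or WT-KO replicate 2, 3 or 5 (adjusted p = 0.0545 to 0.145 and 0.0525 to 0.143).

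The CArG box, the 10-base motif that SRF binds, was searched on both strands of RefSeq promoter windows reaching from 250 bases before to 50 bases after each gene's start. It occurred in 7 of 26 members of this list with a window (26.9%) and in 3 of 16 immediate early genes (18.8%), against 1.63% of all 32851 windows. A member counted if any of its windows matched, whereas the comparison counts single windows (32851 windows of 27025 genes), so the shares are not in the same unit. The first list was also drawn up partly as SRF targets, so part of its excess may be built in. A match here is a description of the letters only. The windows of Cnn2, a calponin higher in KO-WT (0.49 ± 0.0807), Myl9, lower in KO-WT, and the mRNA decay factor Zfp36, higher in KO-WT (0.86 ± 0.0911), are shown because genes that carry the motif were called in both directions. Of 9 matched genes over both lists, 7 were tested: Actg1, Cnn2, Myl6 and Zfp36 were called higher in KO-WT, only Myl9 lower, and Srf and Vcl were not called. Capitals mark the CArG box, and the windows lie on GRCm38.p6 at chr10:79988350-79988649 (plus strand), chr2:156775214-156775513 (plus strand) and chr7:28379179-28379478 (minus strand).

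Cnn2: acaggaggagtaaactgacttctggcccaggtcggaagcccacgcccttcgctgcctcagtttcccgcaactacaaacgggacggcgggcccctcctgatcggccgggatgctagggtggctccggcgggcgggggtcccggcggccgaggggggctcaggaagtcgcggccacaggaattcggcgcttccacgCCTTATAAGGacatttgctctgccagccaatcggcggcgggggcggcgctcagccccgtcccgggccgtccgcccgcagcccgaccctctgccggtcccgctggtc
Myl9: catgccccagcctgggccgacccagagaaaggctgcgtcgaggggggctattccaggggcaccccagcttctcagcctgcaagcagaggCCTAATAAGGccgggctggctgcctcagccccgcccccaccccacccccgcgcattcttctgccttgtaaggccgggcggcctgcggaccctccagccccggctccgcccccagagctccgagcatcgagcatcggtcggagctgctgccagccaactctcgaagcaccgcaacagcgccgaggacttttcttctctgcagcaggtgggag
Zfp36: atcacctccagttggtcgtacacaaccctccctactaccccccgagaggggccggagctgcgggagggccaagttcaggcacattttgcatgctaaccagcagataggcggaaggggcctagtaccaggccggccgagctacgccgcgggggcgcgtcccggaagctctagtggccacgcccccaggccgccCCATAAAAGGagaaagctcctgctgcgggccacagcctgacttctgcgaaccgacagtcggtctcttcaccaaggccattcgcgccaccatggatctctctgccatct

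Immediate early genes, switched on within minutes of a stimulus, showed 1 member against the rest: 14 of 17 tested members were called (82.4%), 13 higher and 1 lower in KO-WT, with a median log2 difference of 0.752. Fosl2 and Jun, subunits of AP-1, differed by 1.49 ± 0.0828 and 1.11 ± 0.101, and Fos by 1.01 ± 0.211. The zinc finger factor Klf6, the antiproliferative Btg2 and the phosphatase Dusp1 differed by 1.34 ± 0.107, 1.19 ± 0.0842 and 1.12 ± 0.0536. Fosl2 levels were 5.04, 4.99, 4.93 and 5.16 in KO-WT and 3.51, 3.60, 3.58, 3.51 and 3.51 in WT-KO, with no overlap. Egr1 was the member lower in KO-WT, in all 4 same-day pairs.

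Feedback genes of the ERK pathway also stood mostly on the KO-WT side: 14 of 16 tested members were called (87.5%), 11 higher and 3 lower in KO-WT, with a median log2 difference of 0.378. Phlda1 (1.30 ± 0.0979), the ERK phosphatases Dusp6 (0.91 ± 0.113) and Dusp5 (0.87 ± 0.0953) and the EGF receptor inhibitor Errfi1 (0.86 ± 0.0605) were the furthest apart. The 3 lower members were the ETS factor Etv5 (-0.32) and the pathway inhibitors Spred2 (-0.21) and Il17rd (-0.20).

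**Figure D5:**
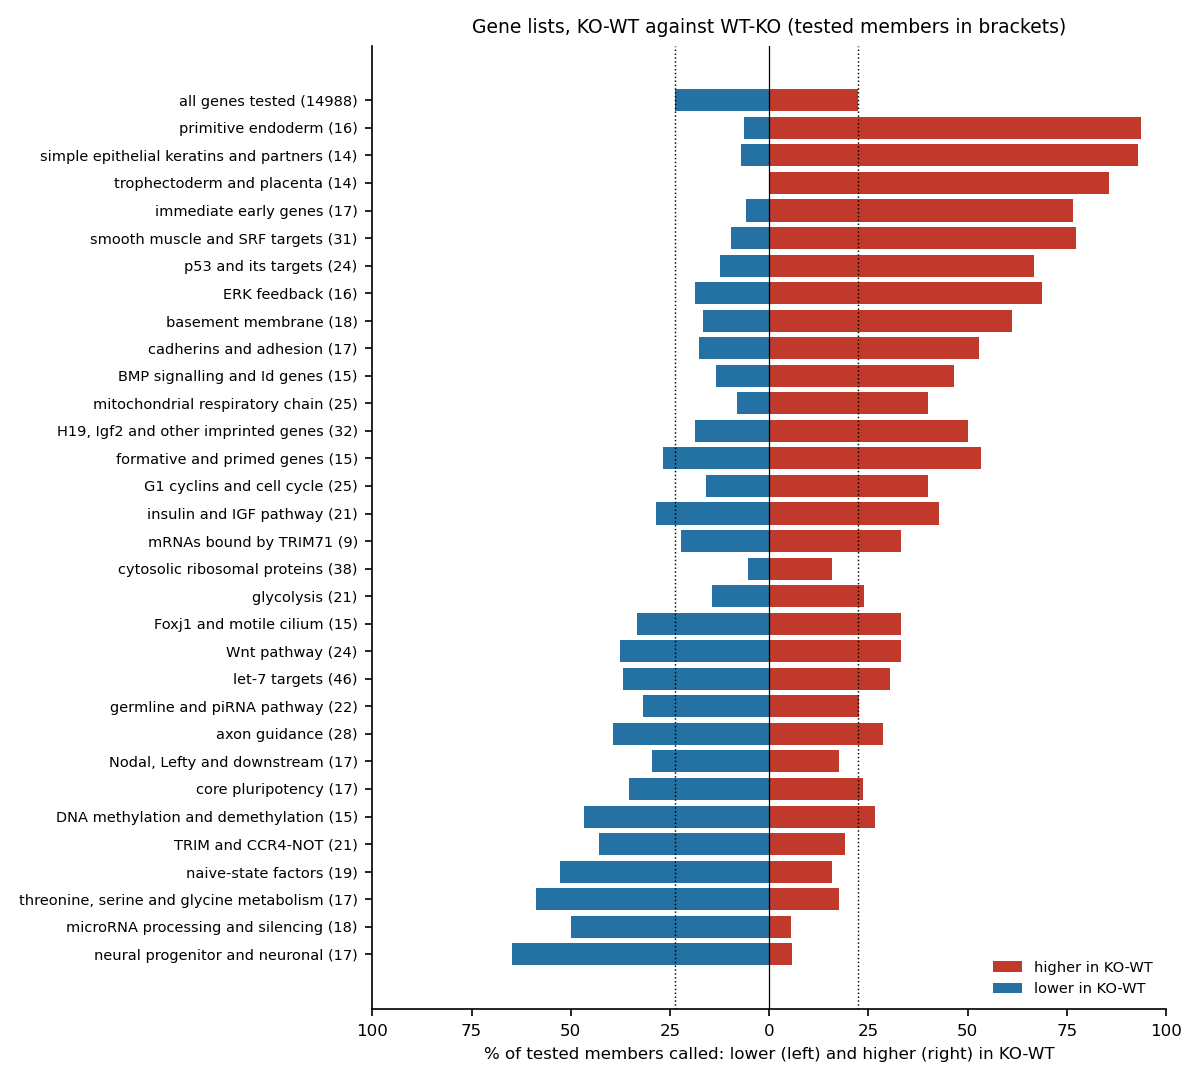
Share of the tested members of each list that limma called higher (right, red) or lower (left, blue) in KO-WT than in WT-KO; dotted lines mark the shares over all 14988 genes, 22.5% and 23.6%. Primitive endoderm, keratin and trophectoderm lists have the longest red bars and the neural list the longest blue bar.

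Pluripotency genes were split. Of core factors, 10 of 17 tested members were called (58.8%), 4 higher (Lin28a, fixed by genotype, among them) and 6 lower in KO-WT, with a median log2 difference of -0.077. Nanog, a homeobox factor of the naive network, was lower in KO-WT (12.32, 12.18, 12.31 and 12.12 against 13.14, 12.88, 13.25, 13.10 and 13.24 in WT-KO, without overlap), a difference of -0.89 ± 0.0772 (limma adjusted p = 1.5e-07). Tcl1, a coactivator of AKT, was lower by -1.17 ± 0.0814, and Dnmt3l, a cofactor of DNA methylation, was higher (0.91 ± 0.0925). Pou5f1, Sox2 and Zfp42 of this list were tested and not called. Zfp42 is also a member of the naive-state list. Naive-state factors leaned the same way as Nanog: 13 of 19 tested members were called (68.4%), 3 higher and 10 lower in KO-WT, with a median log2 difference of -0.230. Dppa3, a maternal factor that protects DNA from methylation changes (-0.98 ± 0.122), Prdm14 (-0.71 ± 0.072) and the nuclear receptor Esrrb (-0.57 ± 0.043) were lower in KO-WT. The 3 members on the other side were the homeobox gene Gbx2 (0.83 ± 0.12), the cytokine inhibitor Socs3 (0.65 ± 0.0852) and Spry4 (0.47, with overlapping groups).

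Formative and primed genes, which rise as cells leave the naive state, gave the opposite balance: 12 of 15 tested members were called (80%), 8 higher and 4 lower in KO-WT, with a median log2 difference of 0.277. Otx2 and Pou3f1, transcription factors of the epiblast, were 1.84-fold and 1.74-fold higher in KO-WT. Otx2 levels were 5.55, 5.31, 5.13 and 5.58 in KO-WT and 4.55, 4.55, 4.42, 4.84 and 4.21 in WT-KO, with no overlap. Zic5 and Zic2 (-0.97 ± 0.128), zinc finger factors of the primed epiblast and neural plate, were lower in KO-WT. Krt18 and Dusp6 belong to this list and to others above. DNA methylation genes were called in both directions: 11 of 15 tested members were called (73.3%), 4 higher and 7 lower in KO-WT, with a median log2 difference of -0.025. The de novo enzymes Dnmt3b (0.48 ± 0.101) and Dnmt3a (0.28 ± 0.105, overlapping groups), Dnmt3l and the imprint factor Zfp57 (0.19 ± 0.0525) were higher in KO-WT, while the maintenance pair Dnmt1 (-0.43 ± 0.0359) and Uhrf1 (-0.35 ± 0.0485) and the dioxygenase Tet1 (-0.49 ± 0.116) were lower. Dnmt3a lost its call without any 1 of 8 libraries (KO-WT replicates 2, 3 and 4, WT-KO replicates 1, 3, 4 and 5 and KO-KO replicate 1; limma adjusted p = 0.0513 to 0.188).

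In the Nodal pathway the ligand and its inhibitors moved apart. The ligand Nodal was higher in KO-WT (9.49, 9.47, 9.80 and 9.54 against 8.67, 8.76, 8.81, 8.50 and 8.65 in WT-KO, 1.86-fold, limma adjusted p = 4.65e-08), while its inhibitors and targets Lefty1 and Lefty2, the ligand Gdf3 and the inhibitory SMAD gene Smad7 (-0.48 ± 0.0482) were lower. Of the whole list, 8 of 17 tested members were called (47.1%), 3 higher and 5 lower in KO-WT, with a median log2 difference of -0.024. The other called members were the receptor gene Acvr2b (-0.30), the activin antagonist Fst (0.32) and the Nodal coreceptor Tdgf1 (0.12). Fst lost its call without KO-WT replicate 1 or 4 or WT-KO replicate 3, and Tdgf1 without KO-WT replicate 1, 2 or 4, WT-KO replicate 1 or 3, KO-KO replicate 1 or WT-WT replicate 4 (limma adjusted p = 0.0575 to 0.0597 and 0.0501 to 0.139). For BMP signalling and its Id targets, 9 of 15 tested members were called (60%), 7 higher and 2 lower in KO-WT, with a median log2 difference of 0.133. Id1 levels were 7.51, 7.95, 8.43 and 8.17 in KO-WT, 6.08, 6.68, 6.12, 5.86 and 5.94 in WT-KO and 7.33, 7.32, 7.27 and 6.94 in WT-WT. Id1, an inhibitor of bHLH factors, lay above WT-WT in KO-WT (0.80, limma adjusted p = 0.0224) and below it in WT-KO (-1.08, limma adjusted p = 0.000234). Id2 was 3.21-fold higher in KO-WT, the homeobox target Msx2 1.92-fold and the ligand Bmp8b 1.67-fold. Id4 (-0.58 ± 0.108) and Smad5 (-0.22; adjusted p = 0.0518 without KO-WT replicate 1) were the 2 lower members by limma.

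Wnt genes showed no common direction: 17 of 24 tested members were called (70.8%), 8 higher and 9 lower in KO-WT, with a median log2 difference of -0.025. The ligands Wnt7b (1.05 ± 0.0912) and Wnt6 (0.92 ± 0.0971) were higher in KO-WT, and the secreted inhibitors Notum (-0.95 ± 0.123) and Sfrp1 (-0.81 ± 0.0677) were lower. In the insulin and IGF pathway, 15 of 21 tested members were called (71.4%), 9 higher and 6 lower in KO-WT, with a median log2 difference of 0.111. The growth factor Igf2, which shares its imprinted locus with H19, had levels of 4.96, 5.12, 5.18 and 5.32 in KO-WT and 3.12, 3.41, 3.33, 3.41 and 3.25 in WT-KO, apart by 3.59-fold (limma adjusted p = 3.06e-09). The IGF-binding protein Igfbp4 (1.19 ± 0.118), the receptor substrate Irs2 (0.69 ± 0.114) and the kinase subunit Pik3r1 (0.47 ± 0.1) followed.

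Of imprinted genes, 22 of 32 tested members were called (68.8%), 16 higher and 6 lower in KO-WT, with a median log2 difference of 0.124. Peg10, a retrotransposon-derived gene of the placenta, had levels of 12.33, 12.45, 12.63 and 12.69 in KO-WT and 9.80, 10.12, 9.89, 9.88 and 9.68 in WT-KO, without overlap (6.27-fold, 2.65 ± 0.103 log2 units, limma adjusted p = 2.56e-11). Its neighbour at the same imprinted locus, Sgce, was 2.4-fold higher in KO-WT and Peg13 2.34-fold. Phlda2, which limits placental growth (-1.0 ± 0.0689), and Grb10 were lower.

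The let-7 target list, mRNAs that let-7 represses in the textbook circuit, had no common direction: 31 of 46 tested members were called (67.4%), 14 higher and 17 lower in KO-WT, with a median log2 difference of -0.051. The calls include Lin28a among the higher and Trim71 among the lower members, which the genotypes fix. Thbs1 and Peg10 differed most, and after the deleted genes came Hmga2, a chromatin protein of embryonic cells. Hmga2 levels were 7.44, 7.45, 7.29 and 7.62 in KO-WT, 6.28, 6.24, 6.19, 6.25 and 6.19 in WT-KO and 7.39, 7.42, 7.52 and 7.23 in WT-WT. WT-KO stood below both other groups (-1.16 from WT-WT, limma adjusted p = 7.29e-09, with KO-WT at 0.06). The phosphatase Dusp9 (1.08 ± 0.121), Myc (0.90 ± 0.142) and cyclin Ccnd2 (0.81 ± 0.169) were also higher in KO-WT. The RNA-binding proteins Igf2bp2 and Igf2bp3 went the other way (-0.79 ± 0.0723 and -0.67 ± 0.0758), as did Trim71 itself. Prtg, a receptor of the immunoglobulin family, lay below WT-WT in both mutants (-0.63 in KO-WT and -1.02 in WT-KO, limma adjusted p = 0.00307 and 1.01e-06), and the mutants still differed by 0.39.

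The 8-base seed match shown above was counted in the longest 3' UTR of every gene tested, a description added after the data were seen. With at least 1 match, 241 of 471 genes were called (51.2%), 112 higher and 129 lower in KO-WT, with a median log2 difference of -0.022. Without a match of 7 or 8 bases, 5356 of 11267 were called (47.5%), with a median of -0.003. The medians against WT-WT were -0.018 and -0.005 in KO-WT and -0.011 and -0.012 in WT-KO, all close to 0. The 2 classes also differ in UTR length (medians of 2449 and 1039 bases). Among 46 list members with a UTR, 25 held the 8-base match, and Peg10, Thbs1, Myc, Ccnd2 and Dusp9 held neither form of it.

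mRNAs described as bound by TRIM71 gave 5 calls among 9 tested (55.6%), 3 higher and 2 lower in KO-WT. Cdkn1a, which codes for the cell cycle inhibitor p21, had levels of 9.35, 9.24, 9.53 and 9.50 in KO-WT, 8.53, 8.45, 8.73, 8.28 and 8.42 in WT-KO and 8.94, 9.01, 9.09 and 8.97 in WT-WT. It lay above WT-WT in KO-WT (0.40, limma adjusted p = 0.0123) and below it in WT-KO (-0.52, limma adjusted p = 0.000115). The semaphorin receptor Plxnb2 rose in KO-WT (0.69 from WT-WT, limma adjusted p = 0.00013) and the mutants differed by 0.91 ± 0.0734. The activin subunit gene Inhbb lay above WT-WT in both mutants (0.88 in KO-WT and 0.68 in WT-KO, limma adjusted p = 8.32e-05 and 1.47e-05) and was not called between them (0.20). The splicing factor Mbnl1 (0.62 ± 0.122) was higher in KO-WT, and Egr1 and the phosphatase Cdc25a (-0.15; limma adjusted p = 0.0656 without KO-WT replicate 4) were lower. Of microRNA processing and silencing genes, 10 of 18 tested members were called (55.6%), 1 higher and 9 lower in KO-WT, with a median log2 difference of -0.142. Dicer1, which cuts precursor hairpins (-0.35 ± 0.0588), Argonaute Ago2 (-0.31 ± 0.071) and the silencing scaffold Tnrc6c (-0.29 ± 0.0513) were lower, and Zc3h12a, a ribonuclease, was the 1 higher member (0.33 ± 0.081).

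In the list of TRIM proteins and the CCR4-NOT deadenylase, 13 of 21 tested members were called (61.9%), 4 higher and 9 lower (Trim71, fixed by genotype, among them) in KO-WT, with a median log2 difference of -0.121. The entry Ccr4 in it is the chemokine receptor described above and no part of the deadenylase. The deadenylase subunits Cnot6l (-0.39 ± 0.0711) and Cnot6 (-0.35 ± 0.074) were lower in KO-WT, and Trim32, another TRIM-NHL protein, was higher (0.52 ± 0.0771).

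Neural progenitor and neuronal genes leaned to WT-KO: 12 of 17 tested members were called (70.6%), 1 higher and 11 lower in KO-WT, with a median log2 difference of -0.296. The cell adhesion molecule Ncam1 differed by -0.64 ± 0.0833, and the oligodendrocyte factor Olig2 was the 1 member higher in KO-WT (0.66 ± 0.0564). Axon guidance genes had no common direction: 19 of 28 tested members were called (67.9%), 8 higher and 11 lower in KO-WT, with a median log2 difference of -0.067. The ephrin Efnb2 (1.42 ± 0.119), its receptor Epha4 (1.15 ± 0.1) and the netrin receptor Unc5b (0.95 ± 0.06) were the furthest apart, all higher in KO-WT. Of motile cilium genes, 10 of 15 tested members were called (66.7%), 5 higher and 5 lower in KO-WT, with a median log2 difference of -0.137; beside Foxj1, the ciliary protein Cfap43 was higher (0.78 ± 0.0954) and the ciliogenic factor Rfx3 lower (-0.48 ± 0.102).

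Targets of p53, the DNA damage response factor, were mostly higher in KO-WT: 19 of 24 tested members were called (79.2%), 16 higher and 3 lower in KO-WT, with a median log2 difference of 0.356. Perp, an apoptosis effector of desmosomes, had levels of 8.53, 8.52, 8.59 and 8.70 in KO-WT, 6.98, 7.04, 7.11, 6.88 and 7.01 in WT-KO and 8.12, 8.23, 8.31 and 8.18 in WT-WT, with no overlap between the mutants (1.58 ± 0.0662, limma adjusted p = 5.76e-11). Perp, Btg2, Cdkn1a and the AKT inhibitor Phlda3 (1.17 ± 0.09) each lay above WT-WT in KO-WT (by 0.38, 0.50, 0.40 and 0.38, limma adjusted p = 0.00549, 0.0042, 0.0123 and 0.0233) and below it in WT-KO (by -1.20, -0.69, -0.52 and -0.79). Plk2, a stress-induced kinase, differed by 0.97 ± 0.0988. The p53 gene itself, Trp53, was lower in KO-WT (-0.17, limma adjusted p = 0.00223), as were the ribonucleotide reductase subunit Rrm2b (-0.46) and the repair factor Xpc (-0.21). Of cell cycle genes, 14 of 25 tested members were called (56%), 10 higher and 4 lower in KO-WT, with a median log2 difference of 0.002. The inhibitor genes Cdkn2a (1.29 ± 0.075), Cdkn1a (0.92 ± 0.0823) and Cdkn2b (0.86 ± 0.0815) and the growth factor-responsive gene Myc were the furthest apart.

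Metabolic lists held smaller differences. Of threonine, serine and glycine genes, which feed one-carbon metabolism in mouse stem cells, 13 of 17 tested members were called (76.5%), 3 higher and 10 lower in KO-WT, with a median log2 difference of -0.197. The mitochondrial folate enzymes Mthfd1l (-0.65 ± 0.0444), Shmt2 (-0.56 ± 0.0559) and Mthfd2 (-0.56 ± 0.0542) and the serine synthesis enzyme Psat1 (-0.52 ± 0.0569) were all lower in KO-WT. Of glycolytic genes, 8 of 21 tested members were called (38.1%), 5 higher and 3 lower in KO-WT, with a median log2 difference of 0.036; the glucose transporters Slc2a1 (0.94 ± 0.0808) and Slc2a3 (0.72 ± 0.0468) were higher and phosphofructokinase Pfkp (-0.79 ± 0.0483) lower. For the respiratory chain, 12 of 25 tested members were called (48%), 10 higher and 2 lower in KO-WT, with a median log2 difference of 0.060, the largest at Cox5b (0.41 ± 0.0696). Of germline and piRNA genes, 12 of 22 tested members were called (54.5%), 5 higher and 7 lower in KO-WT, with a median log2 difference of 0.033. Taf7l, a germ cell TAF, was higher (1.37 ± 0.143). Tdrd12, a piRNA factor, was lower (-0.93 ± 0.157), and its difference from WT-WT was -0.89 in KO-WT (limma adjusted p = 0.00604) and 0.04 in WT-KO (limma adjusted p = 0.852). Cytosolic ribosomal protein genes were near the foot of the range of shares: 8 of 38 tested members were called (21.1%), 6 higher and 2 lower in KO-WT, with a median log2 difference of 0.039, the largest at Rpl35 (0.19 ± 0.0624; limma adjusted p = 0.108 without KO-WT replicate 1).

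The comparison was repeated within the clones. Between clones E3 and C1 alone, 4238 genes were called and 249 of them were at least 2-fold apart; between clones 1 and 1-4 alone, where KO-WT has 1 library and the spread comes from the other groups, 3436 were called and 344 were at least 2-fold apart. A test of whether the difference between the mutants itself differed between these clone sets called 0 genes (limma), with 219 genes at an unadjusted p under 0.05; with 1 library of clone 1 in KO-WT, the 0 does not show that the clone sets were alike. Cubn, Pdgfra and Gata6 differed between the clone sets by -1.21, -1.05 and -0.84, with the larger difference between clones 1 and 1-4. This lean was not particular to primitive endoderm genes, whose clone-set differences ran from -1.21 to 0.11. Those of basement membrane genes ran from -0.92 to 0.29 and those of ERK feedback genes from -0.61 to 0.09. Over all genes tested the range was -1.21 to 2.60. All 182 called genes whose differences are given singly kept the sign of their difference in both clone sets and under every other alternative tried. The leading genes were picked for groups without overlap and for same-day pairs alike in sign. For them a kept sign in part of the same libraries was largely fixed in advance. Between clones E3 and C1 alone, 17 of the 182 lost their call (limma adjusted p = 0.0537 to 0.255). They were Cdc25a, Csrp2, Dennd2d, Dnmt3a, Epcam, Fst, Glb1, Il17rd and Mkl1. The others were Prtg, Rpl35, Spry4, Tdgf1, Tmppe, Trp53, Xpc and Zfp57. Between clones 1 and 1-4, the differences of Lin28b (-0.04), Smad5 (-0.07), Rpl35 (0.11), Cnot6 (-0.16), Ago2 (-0.17), Tet1 (-0.17), Rfx3 (-0.23) and Rrm2b (-0.29) were smaller by over 1.5 times and not called. Tnrc6c (-0.20), Zc3h12a (0.28) and Fos (0.74) were not called there either. The same held for Acvr2b, Cox5b, Csrp2, Dock2, Epcam, Fst and Glb1. It also held for Il17rd, Mkl1, Prtg, Ptprc, Spred2, Tdgf1 and Trp53. The profile most like that of Trim71 over the 18 libraries was that of Urgcp (r = 0.981), a regulator of cyclin D1, which differed between the mutants by -0.57 ± 0.0499 (limma adjusted p = 1.53e-07).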

How the data were processed

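RNA sequencing libraries of SSEA-1-sorted mouse embryonic stem cells were deposited by the authors as 1 table of log2 normalised levels for 21685 genes. CASAVA 1.8, STAR and DESeq2 are named in the submitters' processing notes; the genome build and annotation are not given in the sources used here. The authors' values ran from -0.71 to 16.3 and held no day differences (largest day term 8.2e-09), so day was kept in the fit. Days in the labels pair the libraries; a check of the pairing by correlation was void, since day effects were gone.

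The 14988 genes (69.1%) that reached log2 of 10 in 4 or more of 18 libraries were tested with limma 3.58.1 in R 4.3.3 (genotype and day, eBayes with trend, 10 residual degrees of freedom, Benjamini-Hochberg adjustment). In WT-KO, Wnt6 reached log2 of 10 in no library, Acta2 and Krt20 missed it in most and Igf2, Gata6 and Ptprc in some. These genes passed the filter mainly through other groups. The lowest WT-KO levels of Msx2 (3.26) and Dock2 (2.95) were also below log2 of 10. Fold changes are on the deposited scale. The test was checked on simulated data. Named genes were Trim71, Lin28a, Lin28b; the 12 furthest apart each way among called, non-overlapping genes with all 4 same-day pairs alike and a mean of at least 50 units; up to 4 members per list with the largest difference; and members behind counts of 5 or fewer. 1 gene that this rule names is not reported here. Others named in the text were chosen after their values were seen. Members and lists were chosen with earlier results of these data known. Sequences came from RefSeq (GRCm38.p6) and GENCODE vM21. Alternatives covered the day term, libraries, clones, filters, scaling, GC content and length, and the variance model. 1 KO-WT column was left out as a mean of the others.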

Additional observations from a re-analysis of the deposited data

Results flagged for a closer look

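In 19 of 364 sets of libraries of 1 genotype (182 named genes in KO-WT and in WT-KO, 5.22%), 1 library stood apart from the rest of its group by Dixon's ratio, the gap to the nearest library over the whole range; chance flags about 1 set in 20. In KO-WT these were Urgcp (0.925, 7.45 in replicate 4 against 7.54 to 7.55), Slc6a15 (0.893, low in replicate 3 at 5.46 against 5.70 to 5.73), Ptprc (0.873, 6.68 in replicate 2 against 4.62 to 4.88), Pik3r1 (0.855, 7.14 in replicate 3), Lrrc15 (0.85, 4.18 in replicate 2) and Ccr4 (0.837, 8.41 in replicate 4 against 7.39 to 7.56). Replicate 4 is the only KO-WT library of clone 1.

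In WT-KO, replicate 4 held 7 of the 13 sets and was the highest library in each: S100a6 (0.891, 6.95 against 6.31 to 6.38), Epcam (0.854), Dicer1 (0.816), Pfkp (0.79), Rhox6 (0.773), Dsp (0.744, 6.69 against 6.28 to 6.39) and Cnot6l (0.727). Without that library all 7 genes were still called by limma with the same sign. Replicate 2 was low for Tcl1 (0.865, 8.28 against 8.56 to 8.60) and Cdkn2b (0.751) and high for Gbx2 (0.768, 8.32 against 7.73 to 7.87). Replicate 3 was low for Tubb3 (0.747, 8.72 against 9.04 to 9.15) and high for Krt20 (0.717). Replicate 5 was low for Dock2 (0.766, 2.95 against 3.88 to 4.16).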

How the results depend on the processing

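The count of genes called between KO-WT and WT-KO ranged from 6103 to 7011 when each of 18 libraries was left out in turn, against 6915, and the count at least 2-fold apart from 254 to 297, against 264. The main test pairs libraries by harvest day. Without this replicate block, 8348 genes were called between the mutants, 264 of them at least 2-fold apart; without the block, 4219 genes were called between KO-WT and WT-WT, against 1674. The deposited values had lost their day differences, so the fit without day counts degrees of freedom already spent, and its calls are not read as firmer. Fewer libraries entered the fits by clone, which called 4238 genes (E3 against C1) and 3436 (1 against 1-4). Leaving out single libraries gave 528 to 1978 genes called between KO-WT and WT-WT and 5384 to 6553 between WT-KO and WT-WT. No filter, a filter at 50 units, either scaling, removal of GC and length trends and other variance models gave 5304 to 8639 calls between the mutants. The ends of this range come from unlike numbers of genes: 5304 of 11133 tested at 50 units and 8639 of 21685 without a filter. The share called was thus the smaller one without a filter. Removing GC and length trends took the share of calls higher in KO-WT from 48.7% to 43.6%, and scaling to the 75th percentile took that of WT-KO against WT-WT from 48.0% to 52.8%. The difference between clone sets called 0 genes under each alternative that gave a value (without KO-WT replicate 4 there was none). Of 5439 gene values under alternatives, 105 lost their call and none changed sign. All these genes were called to begin with, and the leading ones were picked for groups without overlap, so kept signs were largely fixed in advance. Depth is unknown, so counting error is not given.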

Other observations

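Srgn, Dock2 and Ptprc, transcripts known from blood cells, were among the genes called at least 2-fold higher in KO-WT than in WT-KO; they were singled out after their values were seen, and no list of blood cell genes was tested. Srgn, the proteoglycan of secretory granules, differed by 2.66 ± 0.171 (limma adjusted p = 5.36e-09). Levels of Dock2, a GTPase activator of blood cells, were 5.98, 5.59, 5.47 and 5.04 in KO-WT, 4.16, 3.88, 3.96, 4.07 and 2.95 in WT-KO and 5.41, 5.56, 5.32 and 6.42 in WT-WT, so the Lin28a-null libraries were the low ones; between clones 1 and 1-4 alone Dock2 was not called (1.41, limma adjusted p = 0.0927). Ptprc, the pan-leukocyte antigen CD45, had levels of 4.88, 6.68, 4.62 and 4.67 in KO-WT and 3.48, 3.71, 2.87, 3.49 and 2.84 in WT-KO, and its call (1.94, limma adjusted p = 0.0119) was lost without KO-WT replicate 2 (1.27, adjusted p = 0.0761) and between clones 1 and 1-4 alone (1.43, adjusted p = 0.409).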
